A study of Mus musculus with 3 samples.

Results

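The JAK kinase genes are Jak1, Jak2, Jak3 and Tyk2, the family that the drug of the study acts on. They were taken by name from the gene table of the deposited matrices and are 4 of its 32285 genes. No measured value was part of this rule, but earlier results of these data were known when they were chosen. Their mRNA was read from full-thickness dorsal skin of wild-type C57BL/6J mice, labelled female and given as 8 weeks old at the start of housing, by droplet-based single-cell RNA-seq of transcript 3′ ends. CON was skin without irradiation. UV was skin irradiated on alternate days through 12 weeks, with UVA at an irradiance of 0.6 mW/cm2 together with UVB at an irradiance of 3.5 mW/cm2. Rux had the same irradiation, with ointment holding 1.5% ruxolitinib, an inhibitor of JAK1 and JAK2, put on the skin right after it. The study describes vehicle for the CON and UV mice, which the labels do not mention. Each condition was 1 library, and the number of mice in a library was not stated. A difference between conditions therefore had no replicate check, no test was made, and each interval below is a 95% interval for counting error only.

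The CON, UV and Rux matrices held 13170, 12411 and 11287 cells with 165337289, 133972374 and 131570327 UMIs, the molecular tags that each mark 1 captured transcript. After filters on genes, mitochondrial UMIs and doublets, 10885, 10327 and 9386 cells remained, with a median of 7542, 7621 and 9446 UMIs. Against the label of female mice, the Y-linked gene Ddx3y had 110.4, 115 and 121 UMIs per 1000000 UMIs (CPM) in CON, UV and Rux and Xist had 0.0914, 0.120 and 0.111 CPM. Of the cell barcodes, 118 occurred in 2 libraries. Without those cells no JAK ratio given here moved outside its counting interval. Cells were clustered together and clusters were named by marker genes, with the suffix -like because the names rest on markers alone. There were 10 classes with at least 50 cells in every library, named as fibroblast (FB), basal keratinocyte (KB), inner root sheath (IRS), lymphatic and vascular endothelial cell (LEC, VEC), pericyte (PCY), Schwann cell (SCH), mast cell (MC), lymphocyte (LYM) and myeloid cell (MYE). Col1a1, a collagen gene, had 7567, 3971 and 4192 CPM in FB-like cells against 317, 429 and 563 CPM in all other cells. Cd3e, a T cell receptor subunit, had 705, 202 and 219 CPM in LYM-like cells against at most 0.675 CPM elsewhere. None of the 4 JAK genes was used for clustering.

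JAK kinases are tyrosine kinases bound to the inner tails of cytokine receptors that have no enzyme activity of their own. When a cytokine brings receptor chains together, the bound JAKs phosphorylate each other and the receptor, STAT transcription factors dock and are phosphorylated, and SOCS proteins made in response limit the signal. JAK1 works with interferon, gp130 and common gamma chain receptors. JAK2 works with growth hormone, GM-CSF, IL-12 family and interferon gamma receptors, JAK3 binds the common gamma chain and is known for its role in lymphocytes, and TYK2 works with type I interferon, IL-10 and IL-12 family receptors. Kinase activity is set by phosphorylation, which mRNA counts do not measure.

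In the GRCm38 annotation (GENCODE M21), Jak1 (ENSMUSG00000028530) spanned chr4:101152367-101265282 on the minus strand and Jak2 (ENSMUSG00000024789) chr19:29251828-29313080 on the plus strand. Jak3 (ENSMUSG00000031805) spanned chr8:71676296-71690575 on the plus strand, and Tyk2 (ENSMUSG00000032175) chr9:21104068-21131243 on the minus strand. The gene Insl3, an insulin-like hormone gene, lies inside the 3′ end of Jak3 on the same strand (chr8:71689214-71690575). Reads that fall in both genes may have been dropped by the counter, so Jak3 is uncertain, and Insl3 itself had 1, 0 and 2 UMIs in CON, UV and Rux.

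The bases just before the starts of the 4 genes are shown because the genes differ in where they were measured, and these windows differ in base content and in the promoter boxes they hold. They come from RefSeq (GRCm38.p6), are written 5′ to 3′ along the gene and end before both the RefSeq and the GENCODE start. Capitals mark GC boxes (GGGCGG) and CCAAT boxes (CCAAT), searched on both strands, with no overlapping matches.
Jak1, chr4:101265283-101265473, minus strand: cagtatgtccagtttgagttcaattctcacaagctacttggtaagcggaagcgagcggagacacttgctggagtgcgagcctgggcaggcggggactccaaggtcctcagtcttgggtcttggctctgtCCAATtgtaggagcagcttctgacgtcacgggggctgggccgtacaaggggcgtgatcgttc
Jak2, chr19:29251553-29251802, plus strand: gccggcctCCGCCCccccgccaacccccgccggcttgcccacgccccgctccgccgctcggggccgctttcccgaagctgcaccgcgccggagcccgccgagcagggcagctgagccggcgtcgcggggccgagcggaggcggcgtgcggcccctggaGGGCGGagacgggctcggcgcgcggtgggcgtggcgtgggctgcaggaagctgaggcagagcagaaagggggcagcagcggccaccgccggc
Jak3, chr8:71676133-71676295, plus strand: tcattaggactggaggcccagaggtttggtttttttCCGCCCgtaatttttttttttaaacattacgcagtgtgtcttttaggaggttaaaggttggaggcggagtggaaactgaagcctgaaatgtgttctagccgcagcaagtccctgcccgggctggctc
Tyk2, chr9:21131276-21131525, minus strand: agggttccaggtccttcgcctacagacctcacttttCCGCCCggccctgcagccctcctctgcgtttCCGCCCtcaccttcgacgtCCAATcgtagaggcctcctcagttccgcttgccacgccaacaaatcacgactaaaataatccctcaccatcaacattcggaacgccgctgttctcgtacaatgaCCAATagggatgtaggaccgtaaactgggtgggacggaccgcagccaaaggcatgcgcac
The Jak2 window was 80.8% G or C with 37 CG pairs, against a median of 52.4% G or C over all promoter windows of that length. Jak1 had 57.6%, Tyk2 57.2% and Jak3 48.5%. The Jak2 window held 2 GC boxes, which 32.7% of 32851 promoters held at least once at 250 bases. The Tyk2 window held 2 GC boxes and 2 CCAAT boxes, the latter present in 33.8% of promoters. The Jak1 window held 1 CCAAT box, 62 bases before its end, and the Jak3 window 1 GC box. The motifs of 4 kinds of inducible factors were also searched, the STAT motif GAS (TTCNNNGAA), the interferon element core (GAAA, any 2 bases, GAAA), AP-1 (TGANTCA) and ETS (GGAAGT). No window held any of them, where 7.02%, 2.98%, 6.75% and 19.7% of all promoters did at 250 bases, which says only that these letters were not in these windows.

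Jak1, the partner of interferon, gp130 and gamma chain receptors, was read in every class. In CON it had 749 CPM in LEC-like, 705 in VEC-like, 609 in FB-like and 552 in LYM-like cells. It had 475 CPM in PCY-like, 424 in MC-like, 403 in SCH-like and 336 in MYE-like cells. The lowest CON levels were 238 CPM in KB-like and 95.7 CPM in IRS-like cells. Endothelial, fibroblast and lymphocyte classes thus stood above the epithelial ones, and the counting intervals of LEC-like and VEC-like cells overlapped, as did those of PCY-like, MC-like and SCH-like cells. In Rux the order was led by LYM-like (548 CPM) and VEC-like cells (515 CPM), whose intervals overlapped, and IRS-like cells were again last (57.4 CPM). A level is scaled to all UMIs of its class and library. Levels of different genes are not compared, since capture at the 3′ end differs between genes.

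**Figure D1:**
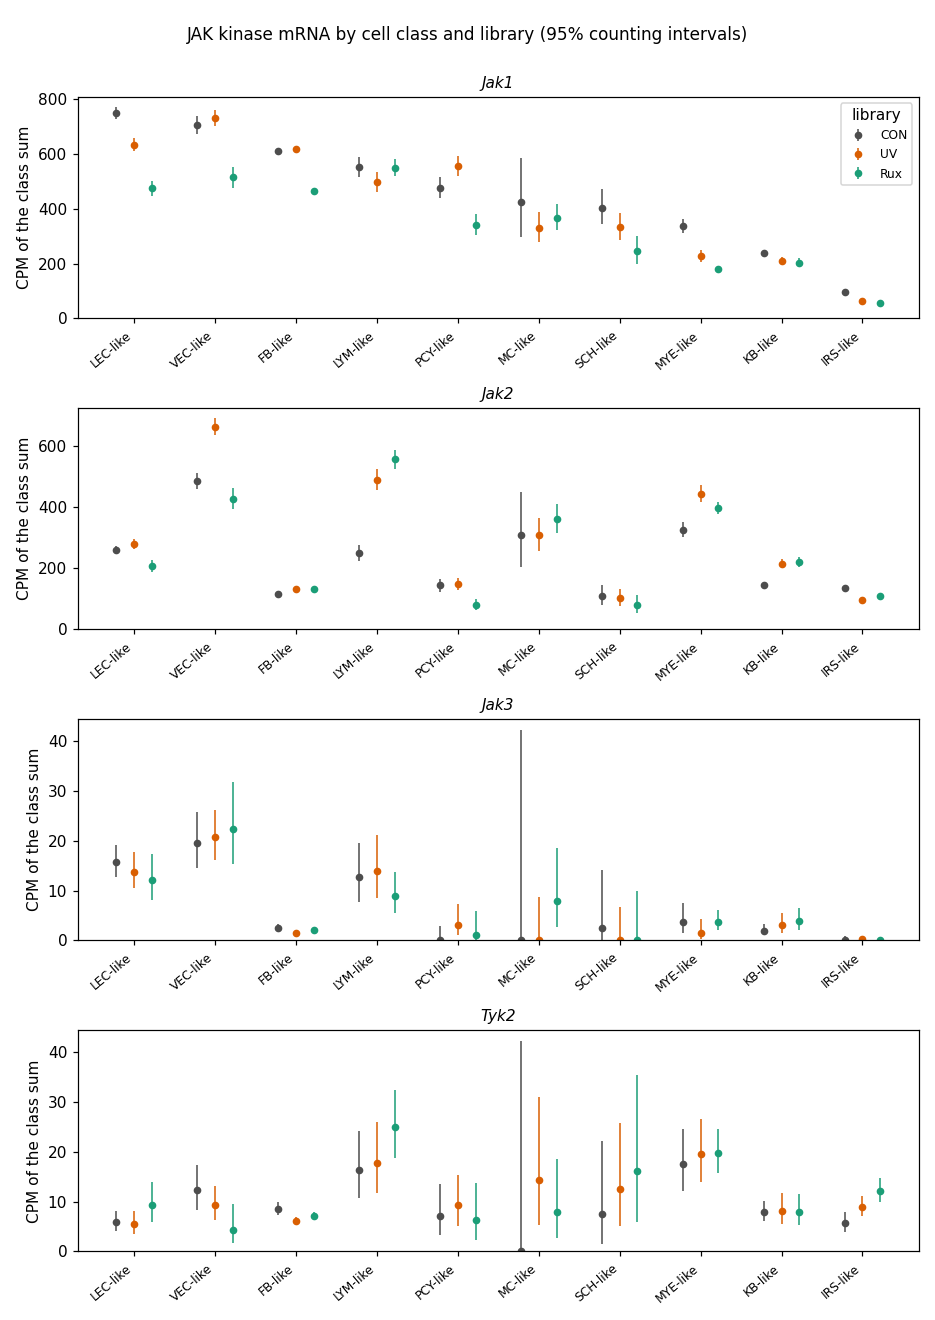
Level of each JAK gene (CPM of the class sum, vertical axis from 0, one panel per gene with its own scale) in the 10 cell classes (horizontal axis) and the CON, UV and Rux libraries (colours); points are values of 1 library and bars 95% counting intervals. Jak1 in FB-like cells sits at 609, 617 and 465 CPM, Jak2 in LYM-like cells at 249, 489.9 and 557 CPM, and Jak3 is highest in VEC-like cells in each library.

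In FB-like cells Jak1 had 609 (599 to 619.6), 617 (609 to 625) and 465 (459 to 471) CPM in CON, UV and Rux. The UV and CON values lay close together and the Rux value below both. The log2 ratio of UV over CON was 0.019 (−0.013 to 0.050), that of Rux over UV −0.41 (−0.43 to −0.38) and that of Rux over CON −0.39 (−0.42 to −0.36). Genes counted as tested reached a class mean of 10 CPM and 20 UMIs over both libraries. Of these, 90.1% had a higher Rux over UV ratio than Jak1, and the median gene was at 0.016. In this comparison 32.5% of those genes had an interval below 0 and 36.2% one above 0. Cells with at least 2000 UMIs, which were 3042, 4641 and 4379 FB-like cells in CON, UV and Rux, were thinned to 2000 UMIs. Shallower cells were left out of all thinned shares. Of the thinned FB-like cells, 62.2%, 62.7% and 55.3% had a Jak1 UMI, and 30.7%, 32.2% and 21.5% had at least 2. The lower Rux value was seen in the share of cells as well as in the summed counts. Genes of a length like that of Jak1, 80000 to 160000 bases, had a median Rux over UV ratio of 0.035 in these cells.

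Over the 10 classes, the Jak1 ratio of Rux over UV had an interval below 0 in 6, above 0 in 1 and across 0 in 3, where a class had an interval below 0 for 6.75% to 32.5% of its tested genes. The classes below 0 were FB-like, LEC-like, VEC-like, PCY-like, SCH-like and MYE-like. With equal weight per cell the SCH-like ratio was 0.0049 in place of −0.43. VEC-like cells had 705, 729 and 515 CPM in CON, UV and Rux, with a Rux over UV ratio of −0.50 (−0.63 to −0.38). LEC-like cells had 749, 633 and 475 CPM, lower in each step, with ratios of −0.24 (−0.31 to −0.18) for UV over CON, or −0.40 with equal weight per cell, and −0.41 (−0.51 to −0.32) for Rux over UV. PCY-like cells had 475, 555 and 341 CPM and the ratio −0.70 (−0.89 to −0.52). Endothelial and mural classes thus held fewer Jak1 CPM in Rux than in UV. For VEC-like cells, genes of 80000 to 160000 bases had a median ratio of −0.12, which lies on the same side of 0 as Jak1. The PCY-like value moved to −0.21 when doublets were kept, a setting in which that class held 556, 581 and 240 cells in place of 211, 247 and 118. In LYM-like cells Jak1 had 552, 496 and 548 CPM, and Rux over UV was 0.15 (0.014 to 0.28), or 0.042 with equal weight per cell. Without a division into classes, 20 of 30 clusters with at least 50 cells in every library had the interval below 0 and 1 above. Against CON, the Rux value of Jak1 was lower in 8 of 10 classes by this measure and higher in 0, where 8.04% to 45% of tested genes of a class had an interval below 0. The former included PCY-like cells, at −0.48, where the ratio was 0.031 with doublets kept.

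**Figure D2:**
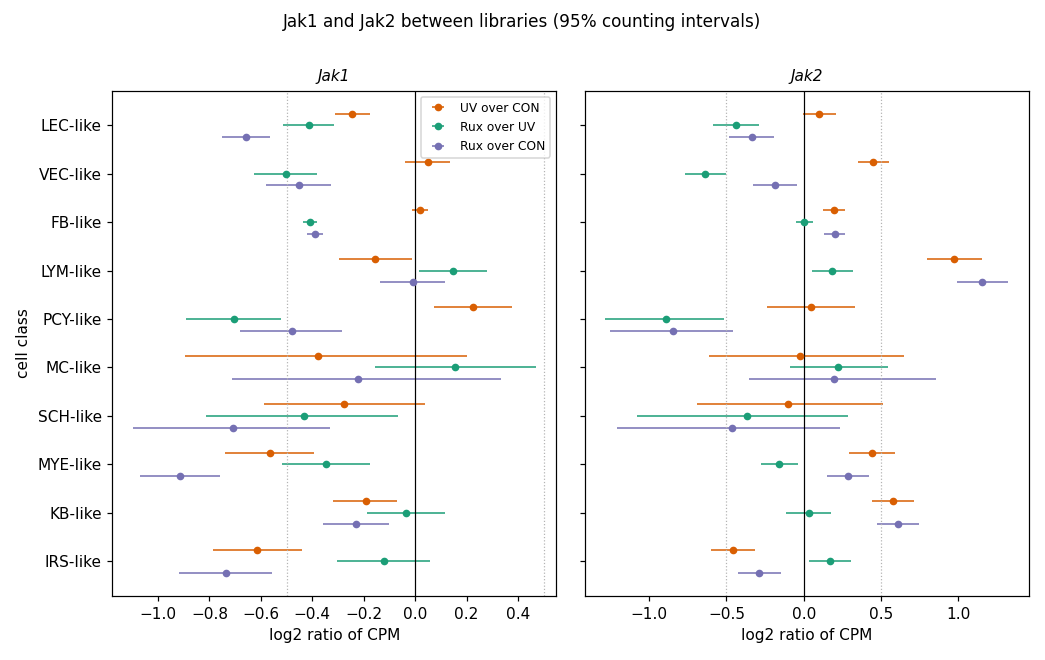
Log2 ratio of CPM (horizontal axis) between libraries for Jak1 and Jak2 (panels) in the 10 cell classes (vertical axis); points are ratios, bars 95% counting intervals, dotted lines mark 0.5 and −0.5. The Rux over UV points of Jak1 lie left of 0 in 8 of 10 classes, and the UV over CON point of Jak2 in LYM-like cells lies at 0.97.

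FB-like cells were split into 12 subclusters, and these were unevenly filled. Subcluster 2, led by Socs3, Gadd45g and Irf1, held 1146, 384 and 13 cells in CON, UV and Rux, and subcluster 9, led by Saa3, Hp and Lcn2, held 11 cells of UV, 429 of Rux and none of CON. In CON and UV, Jak1 was highest in subcluster 10, a shallow one with haemoglobin genes among its leading genes. It had 1363, 1216 and 704 CPM there in CON, UV and Rux. Subcluster 2 had 718, 882 and 840.1 CPM, above subcluster 10 in Rux, where its value rested on 13 cells. Within subclusters that had at least 50 cells in both libraries, the Rux over UV interval of Jak1 lay below 0 in 10 of 10, with ratios of −1.22 to −0.18. In the whole FB-like class 32.5% of tested genes had such an interval below 0, and no share per subcluster is given. Jak1 was thus lower in Rux than in UV inside each of the subclusters that could be compared. Subcluster 0, led by Postn and Myo16, had 514, 619 and 479 CPM. Subcluster 4, led by Thbs4, had 623, 576 and 491 CPM, and subcluster 5, led by Gdf10, had 668, 658 and 498 CPM. Subcluster 11, led by Coch and Fmod, had 612, 599 and 256 CPM, the last over 71 cells, and the ratio −1.22 (−1.51 to −0.95). The UV over CON intervals of Jak1 pointed both ways, above 0 in 4 of 9 subclusters and below 0 in 3. Over all FB-like cells, 26.9% of tested genes had a UV over CON interval above 0 and 45.8% one below. Subcluster 1, led by Pecam1, an endothelial gene, had the lowest CON level, with 332, 459 and 364 CPM over 526, 585 and 490 cells.

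With each subcluster weighted by its CON cells, Jak1 was 599.6, 671 and 583 CPM in CON, UV and Rux. Rux over UV was then −0.20 and Rux over CON −0.040, with 36.0% of the weight on subcluster 2. Without the subclusters under 50 cells in any library, the levels were 529.6, 549 and 440.1 CPM and Rux over UV −0.32. Rux over CON was −0.27 in this last case. The size of the difference thus moved with how the subclusters were weighted.

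**Figure D3:**
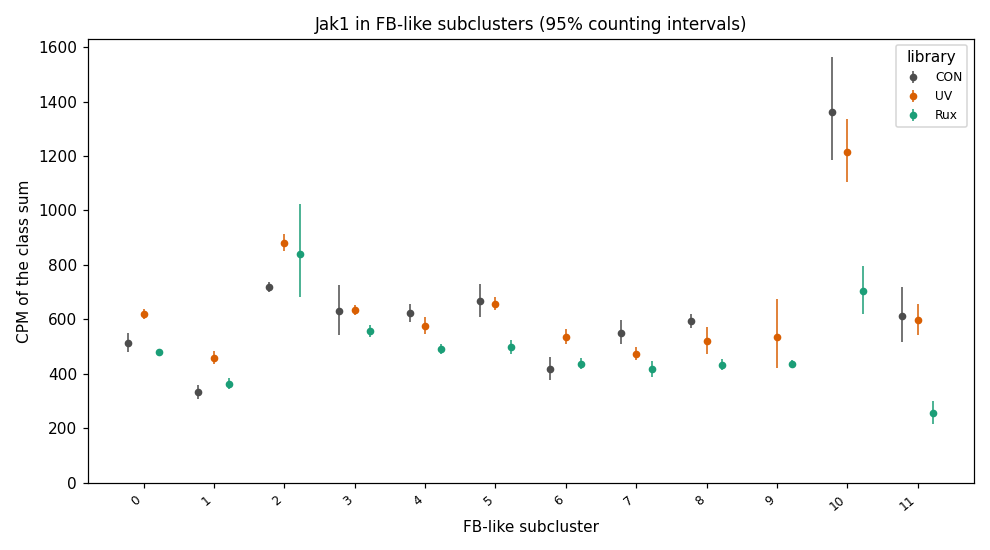
Jak1 level (CPM of the subcluster sum, vertical axis from 0) in the 12 FB-like subclusters (horizontal axis, by number) and the CON, UV and Rux libraries (colours); points are values of 1 library, bars 95% counting intervals. Rux lies below UV in all 12, and wide bars belong to subclusters with few cells. Subcluster 10 stands highest in CON and UV, with 1363, 1216 and 704 CPM in CON, UV and Rux.

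In MYE-like cells Jak1 had 336 (311 to 363), 227 (207 to 249) and 179 (166 to 192) CPM in CON, UV and Rux, each lower than the one before. UV over CON was −0.57 (−0.74 to −0.39) and Rux over CON −0.91 (−1.07 to −0.76), and 16.7% and 23.9% of the class's tested genes were lower by at least 0.5 log2. A single CON cell held 49 Jak1 UMIs, 7.54% of the class's CON count. Without the cell of most Jak1 UMIs in each library, UV over CON was −0.50. One MYE-like cluster was led by Igkc and Ighg2b, which are antibody genes. Immune cells clustered again held 8, 11 and 1 B-cell-like (B-like) cells in CON, UV and Rux, with Igkc at 370598, 374263 and 387940 CPM. UMIs of such cells enter the totals that scale MYE-like levels, and no MYE-like value without them is given. The MYE-like cells were mostly macrophage-like (MAC-like), with 201, 183 and 382 cells, a count without B-like cells. The MAC-like cells had 427, 272 and 191 CPM and a Rux over CON ratio of −1.17 (−1.34 to −0.99). In each MAC-like subcluster present in every library, CON was the highest. The one led by Lyz1 and Retnla had 411, 269 and 227 CPM, and the Lyve1 and Folr2 one 528, 480 and 229 CPM. The Chil3 and Saa3 one had 302, 160.4 and 179 CPM. A further one, led by Spp1 and Arg1, held no CON cell and had 214 and 158 CPM over 15 and 63 cells of UV and Rux. In natural-killer-like (NK-like) cells Jak1 had 737, 570.2 and 649.7 CPM and in alpha-beta T-like cells (abT-like) 485, 467 and 515 CPM, with Rux over CON intervals that held 0 in both.

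Among epithelial cells Jak1 was 238, 208 and 203 CPM in KB-like and 95.7, 62.5 and 57.4 CPM in IRS-like cells in CON, UV and Rux. IRS-like cells form the sheath around the growing hair. They joined clusters of 153, 162 and 105 cells and of 51, 149 and 167 cells in CON, UV and Rux. Their UV over CON ratio was −0.61 (−0.79 to −0.44). Their Rux over UV ratio was −0.12 (−0.30 to 0.059), or 0.10 with equal weight per cell. With all epithelial clusters joined, a class set up after the data were seen, Jak1 had 155, 109.5 and 115 CPM and UV over CON was −0.50 (−0.55 to −0.46). The make-up of the joined class differed between libraries, with 3721, 1960 and 1626 cells in all and 532, 105 and 126 KB-like. In single epithelial clusters the UV over CON interval lay below 0 in 4 of 9 and above 0 in 1, where 6.45% to 45.8% of tested genes of a class had one below 0. Over all kept cells, Jak1 had 285, 357 and 314 CPM, higher in UV than in CON by 0.32 (0.30 to 0.34) on the log2 scale. FB-like cells gave 31.7%, 54.7% and 62.7% of all Jak1 UMIs in CON, UV and Rux and 14.8%, 31.6% and 42.4% of all UMIs. FB-like cells thus gave a larger share of Jak1 UMIs than of all UMIs in each library.

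Jak2, the partner of growth hormone, GM-CSF and IL-12 family receptors, followed another order. Among the 10 classes, in CON it was highest in VEC-like cells at 486 CPM. It had 327 CPM in MYE-like, 309 in MC-like, 261 in LEC-like and 249 in LYM-like cells, where each interval overlapped the next. The remaining classes lay between 109 CPM in SCH-like and 144 CPM in PCY-like cells, with FB-like cells at 115 CPM. Endothelial and immune cells thus held the most Jak2 and FB-like cells were among the lowest classes. In Rux, LYM-like cells led with 557 CPM, above VEC-like cells at 427 CPM.

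In LYM-like cells Jak2 had 249 (225 to 275), 489.9 (455 to 526) and 557 (527 to 589) CPM in CON, UV and Rux. Both irradiated libraries stood above CON with no overlap of intervals. UV over CON was 0.97 (0.80 to 1.15), Rux over UV 0.18 (0.053 to 0.32) and Rux over CON 1.16 (0.99 to 1.33). Of tested LYM-like genes, 3.19% had a higher UV over CON ratio and 1.87% a higher Rux over CON ratio, where 12.2% and 11.2% were higher by at least 0.5 log2. After thinning, 27.9%, 44.7% and 53.5% of LYM-like cells had a Jak2 UMI and 10.2%, 24.1% and 23.8% had at least 2. The lymphocytes themselves differed between libraries. A cluster led by Trdc, the constant part of the delta chain of the T cell receptor, held 87 cells of CON and 1 each of UV and Rux. Without it UV over CON was 0.54 and Rux over CON 0.72. The summed markers of vascular endothelial cells, the class highest in Jak2 among the 10 in CON, were 55.6, 82.3 and 131 CPM in LYM-like cells, against 3627, 3811 and 4149 CPM in VEC-like cells.

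Immune cells were clustered again and compared by kind. In abT-like cells Jak2 had 239.6, 364 and 466 CPM in CON, UV and Rux, with UV over CON of 0.60 (0.27 to 0.94) and Rux over CON of 0.96 (0.67 to 1.26). The larger of their subclusters, led by Themis, Cd6 and Cd4, had 225, 436 and 479 CPM and a UV over CON ratio of 0.95 (0.54 to 1.39), and the cycling one 257, 163 and 395 CPM over 18, 10 and 13 cells. In gamma-delta T-like cells (gdT-like) Jak2 had 135, 358 and 428 CPM, which joined a pair of unlike subclusters. The subcluster led by Il17a and Il23r, present in all libraries, had 327, 387 and 432 CPM and a UV over CON ratio of 0.25 (−0.32 to 0.80), whose interval held 0. The other, led by Kcnma1 and Zmat4, had 57.8 CPM in its 90 CON cells and only 3 and 1 cells in UV and Rux. The Il17a and Il23r subcluster had a Rux over CON ratio of 0.40 (−0.062 to 0.88), whose interval also held 0. The gdT-like values thus joined subclusters of unlike level that were unevenly filled between libraries.

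NK-like cells had 123, 255 and 468 CPM of Jak2 in CON, UV and Rux over 25, 69 and 86 cells. Their UV over CON ratio was 1.03 (0.39 to 1.79) and their Rux over UV ratio 0.87 (0.59 to 1.17). The Gzmc-led subcluster had 60.4, 185 and 481 CPM and the Gzma-led one 209.9, 387 and 438 CPM, both lowest in CON and highest in Rux. Group 2 innate lymphoid-like cells (ILC2-like), led by Il5 and Gata3, had the highest Jak2 of any named class, 1251, 1390.3 and 1448 CPM over 12, 19 and 23 cells, with intervals that overlapped between libraries. An unnamed subcluster led by Il1rl1 and Tnfrsf4 had 566, 1346 and 863 CPM over 12, 24 and 29 cells. MAC-like cells had 215, 356 and 352 CPM, with UV over CON of 0.73 (0.51 to 0.96) and Rux over UV of −0.017 (−0.18 to 0.15). The MAC-like subclusters split here. The Lyz1 one had 251, 415 and 323 CPM and the Chil3 one 274, 441 and 418 CPM, while the Lyve1 and Folr2 one had 140.5, 82.2 and 85.1 CPM, highest in CON. Over the whole MYE-like class Jak2 had 327, 444 and 398 CPM, with UV over CON of 0.44 (0.30 to 0.59), which was 0.15 with doublets kept.

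**Figure D4:**
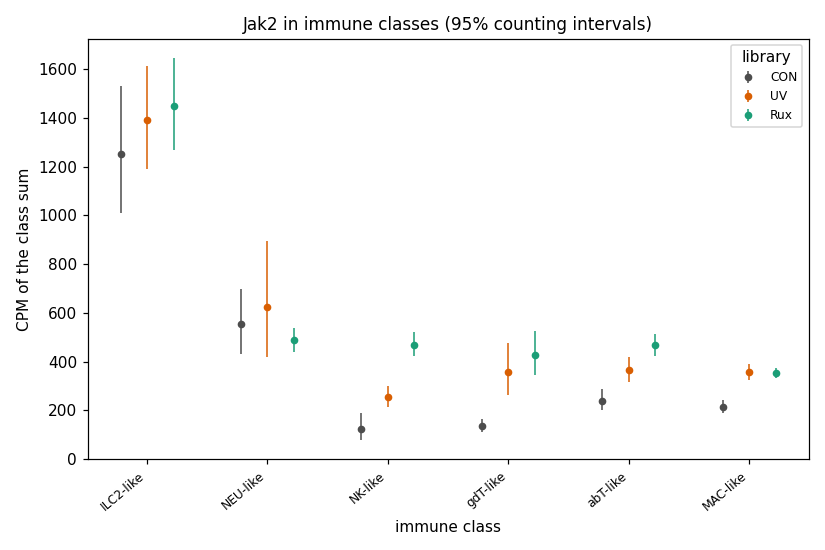
Jak2 level (CPM of the class sum, vertical axis from 0) in 6 immune classes (horizontal axis, NEU-like being neutrophil-like) and the CON, UV and Rux libraries (colours); points are values of 1 library, bars 95% counting intervals. CON is the lowest library in NK-like, gdT-like, abT-like and MAC-like cells, and ILC2-like cells stand highest at 1251, 1390.3 and 1448 CPM with overlapping bars.

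In VEC-like cells Jak2 had 486 (459.8 to 514), 664 (637 to 693) and 427 (393 to 463) CPM in CON, UV and Rux, with UV the highest and Rux the lowest. UV over CON was 0.45 (0.35 to 0.55) and Rux over UV −0.64 (−0.77 to −0.51), beyond 0.5 log2 in a comparison where 11.4% of tested genes were lower by that much. Both clusters of the class had the same order, with 524, 650.1 and 428 CPM and 447, 709 and 426 CPM. The VEC-like cells also carried haemoglobin and Alas2 UMIs, 28.0, 1119 and 285 CPM in sum, and leaving haemoglobin, keratin and mitochondrial genes out of the totals gave a Rux over UV ratio of −0.64. In LEC-like cells Jak2 had 261, 280.1 and 207 CPM, with Rux over UV of −0.44 (−0.59 to −0.29), or −0.20 with equal weight per cell. PCY-like cells had 144, 149 and 79.9 CPM, with Rux over UV of −0.89 (−1.29 to −0.52) and Rux over CON of −0.84 (−1.26 to −0.46), the lowest Jak2 ratios of the 10 classes in both comparisons. In that class 14.1% of genes were lower by at least 0.5 log2 in Rux over UV. With doublets kept, these ratios were −0.20 and 0.0052, so the PCY-like difference depended on which cells the class held. Vascular and lymphatic endothelial cells thus shared the lower Jak2 in Rux than in UV.

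FB-like cells had 115 (110.3 to 119), 132 (128 to 135) and 132 (129 to 135) CPM of Jak2 in CON, UV and Rux. UV over CON was 0.20 (0.13 to 0.27) and Rux over UV 0.0037 (−0.050 to 0.058), an interval that held 0. With subclusters weighted as in CON, Rux over UV was −0.32, and −0.19 without those under 50 cells, against the Jak1 values of −0.20 and −0.32 under the same weights. Of FB-like genes, 20.5% had a higher UV over CON ratio, and with equal weight per cell the ratio was 0.014. Within FB-like subclusters the UV over CON ratio of Jak2 ran from −0.71 to 0.97, with 3 intervals above 0 and 3 below of 9. In the whole FB-like class, 26.9% of tested genes had such an interval above 0 and 45.8% one below. Subcluster 0, led by Postn, had 108, 177 and 161 CPM. Thinned FB-like cells that held a Jak1 UMI also held a Jak2 UMI in 409, 614 and 502 cells, 1.05, 1.06 and 1.04 times the number that independent detection gives in CON, UV and Rux.

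In KB-like cells Jak2 had 144, 215 and 219.5 CPM, with UV over CON of 0.58 (0.44 to 0.71), where 18.2% of genes were higher by at least 0.5 log2. Its 2 clusters were unevenly filled between CON, UV and Rux. One had 144, 226 and 228 CPM over 453, 23 and 70 cells, and the other 143, 213 and 214 CPM over 79, 82 and 56 cells. With doublets kept the class held 106, 83 and 59 cells in place of 532, 105 and 126, and the ratio was 0.19. IRS-like cells, from clusters unevenly filled between libraries, had 134, 97.4 and 109.7 CPM and a UV over CON ratio of −0.46 (−0.60 to −0.32). Epithelial clusters thus differed in direction. Of 9 epithelial clusters, the UV over CON interval lay above 0 in 3 and below 0 in 6, with ratios of −1.05 to 0.57. Of the tested genes of a class, 6.2% to 30.7% had an interval above 0 and 6.45% to 45.8% one below. All epithelial clusters joined had 198, 157 and 139.96 CPM.

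Jak3, the kinase of the common gamma chain, was sparse, with 368, 321 and 265 UMIs in all kept cells of CON, UV and Rux. Endothelial as well as lymphocyte classes held it. VEC-like cells had 19.5 (14.5 to 25.7), 20.7 (16.1 to 26.1) and 22.4 (15.2 to 31.8) CPM from 51, 69 and 31 UMIs. LEC-like cells had 15.7, 13.8 and 12.1 CPM from 96, 61 and 30 UMIs and LYM-like cells 12.6, 13.8 and 8.88 CPM from 20, 21 and 20 UMIs. Neighbours in this order had overlapping intervals in each library. FB-like cells had 2.46, 1.46 and 2.04 CPM from 52, 54 and 101 UMIs. After thinning, 4.50%, 4.43% and 5.13% of VEC-like, 3.19%, 2.80% and 2.70% of LEC-like and 0.820%, 3.51% and 1.18% of LYM-like cells had a Jak3 UMI, against 0.493%, 0.345% and 0.297% of FB-like cells. IRS-like cells, which served as background, had 1, 2 and 0 UMIs and none after thinning. LEC-like and VEC-like cells made up 4.31%, 3.78% and 2.12% and 1.83%, 2.85% and 1.19% of all UMIs but gave 26.1%, 19.0% and 11.3% and 13.9%, 21.5% and 11.7% of Jak3 UMIs. Markers of lymphocytes, the class known for Jak3, summed to 11.9, 2.10 and 2.89 CPM in VEC-like cells against 4600.4, 1891 and 2068 CPM in LYM-like cells.

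Between libraries Jak3 showed 1 interval away from 0 among the named classes, in FB-like cells, where UV over CON was −0.76 (−1.33 to −0.18) and Rux over UV 0.48 (−0.0060 to 0.99). With subclusters weighted as in CON these were −0.31 and 0.99, with 36.0% of the weight on subcluster 2, which held 13 Rux cells. Without the subclusters under 50 cells in any library, Rux over UV was −0.27. The Jak3 level in FB-like cells was under the minimum of 10 CPM set for counting genes. In VEC-like cells UV over CON was 0.077 (−0.46 to 0.63) and Rux over UV 0.13 (−0.54 to 0.75). In LYM-like cells these ratios were 0.13 (−0.82 to 1.09) and −0.64 (−1.60 to 0.32). The first of these intervals held the Jak2 ratio of 0.97 as well as 0, so these counts do not exclude a difference of that size in Jak3.

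Tyk2, the kinase of type I interferon and IL-12 family receptors, had 1118, 958 and 1112 UMIs in all kept cells of CON, UV and Rux. MYE-like cells had 17.6 (12.2 to 24.6), 19.5 (13.9 to 26.5) and 19.8 (15.7 to 24.6) CPM and LYM-like cells 16.4 (10.7 to 24.1), 17.8 (11.7 to 25.9) and 24.9 (18.8 to 32.3) CPM. The other classes lay between 4.34 and 16.2 CPM, apart from MC-like cells of CON at 0, where 3 UMIs would be 34.3 CPM. In each library neighbouring classes in the order had overlapping intervals. FB-like cells had 8.52, 6.10 and 7.13 CPM from 180, 226 and 353 UMIs, with UV over CON of −0.48 (−0.77 to −0.19) and Rux over UV of 0.22 (−0.020 to 0.47). With subclusters weighted as in CON, these were −0.15 and 0.12. In IRS-like cells Tyk2 had 5.61, 8.93 and 12.2 CPM from 33, 78 and 98 UMIs, with Rux over CON of 1.10 (0.53 to 1.73). Joined epithelial cells had 7.32, 8.85 and 10.4 CPM, with Rux over CON of 0.50 (0.33 to 0.68). VEC-like cells had 12.3, 9.28 and 4.34 CPM from 32, 31 and 6 UMIs, and Rux over CON was −1.41 (−3.05 to −0.22), a value that rested on 6 UMIs in Rux and was −0.44 at clustering resolution 0.8. Tyk2 was thus highest in Rux in IRS-like cells. These joined clusters of 153, 162 and 105 cells and of 51, 149 and 167 cells in CON, UV and Rux. For Rux over CON, mean Tyk2 levels of IRS-like, VEC-like and joined epithelial cells were under the minimum of 10 CPM set for counting genes. Rux was also highest in MYE-like, LYM-like, LEC-like and SCH-like cells, with overlapping intervals. In FB-like, KB-like, VEC-like, PCY-like and MC-like cells it was not.

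The genes that work with the JAK kinases were followed through lists of 70 genes, holding STATs, feedback inhibitors, receptors of the interferon and IL-10, gp130, JAK2 and common gamma chain families, and the chaperones Hsp90aa1, Hsp90ab1 and Cdc37, which fold kinases. In FB-like cells 44 of them passed the minimums for UV over CON, of which 4 were higher and 7 lower by at least 0.5 log2, against 7.95% and 11.4% of all tested genes. For Rux over UV 44 passed, 3 higher and 7 lower, against 4.57% and 7.03% of all tested genes. For Rux over CON 45 passed, 3 higher and 10 lower, against 8.94% and 13.5%. The median ratio of the lists was −0.11 for Rux over UV, where the median of all tested genes was 0.016. Of the JAK genes themselves, Jak1 and Jak2 passed the minimums in FB-like cells and neither reached 0.5 log2 in any comparison, while Jak3 and Tyk2 did not pass.

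The following values are from FB-like cells unless another class is named. Of the receptors that signal through JAK1, Il31ra, the IL-31 receptor subunit, had 31.4, 75.0 and 28.8 CPM in CON, UV and Rux. It was high in UV and low again in Rux, with ratios of 1.26 (1.13 to 1.38) and −1.38 (−1.48 to −1.29). Il4ra, the IL-4 receptor, had 106, 151 and 90.0 CPM and ratios of 0.51 (0.44 to 0.58) and −0.75 (−0.81 to −0.69). Il15ra was higher in UV than CON by 0.93 (0.85 to 1.00). The interferon gamma receptor chains ran the other way in Rux, with Ifngr1 at 0.56 (0.51 to 0.62) and Ifngr2 at 0.55 (0.43 to 0.66) over UV. Feedback inhibitors were lower in each step for Socs3, with 937, 424 and 129 CPM, and Socs1, with 100.3, 50.2 and 18.7 CPM. Both are leading genes of FB-like subcluster 2, which held 1146, 384 and 13 cells in CON, UV and Rux. Socs3 differed by −1.72 (−1.76 to −1.67) in Rux over UV, against the Jak1 ratio of −0.41. Stat2, which works in type I interferon signalling, had 58.8, 48.2 and 20.8 CPM and the Rux over UV ratio −1.22 (−1.33 to −1.10). Other receptor genes differed as well. Cntfr, the ciliary neurotrophic factor receptor, was at −1.09 (−1.33 to −0.86) and Lepr, the leptin receptor, at −0.73 (−0.85 to −0.61) in UV over CON. Csf2rb2, a beta chain of the IL-3 receptor, was at −1.42 (−1.63 to −1.22) in Rux over UV. It is a leading gene of FB-like subcluster 5, which held 144, 709 and 375 cells in CON, UV and Rux. The inhibitor Socs2 was at −1.01 (−1.10 to −0.93) in UV over CON. None of the 3 chaperones reached 0.5 log2 in any comparison of FB-like cells. In MYE-like cells Hsp90aa1 had 527, 402 and 314 CPM in CON, UV and Rux.

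**Figure D5:**
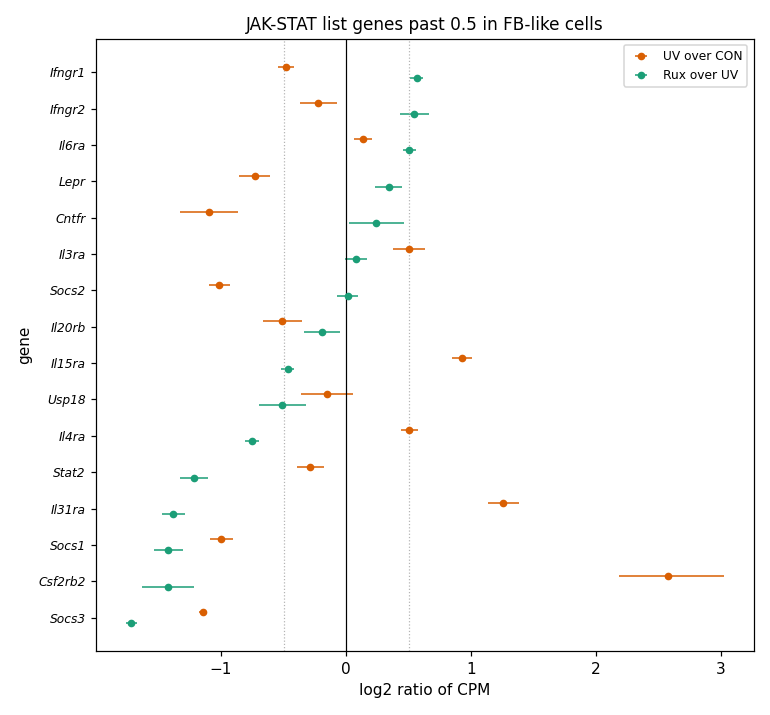
Log2 ratio of CPM (horizontal axis) in FB-like cells for 16 list genes past 0.5 log2 in UV over CON or Rux over UV (vertical axis); colours give the comparison, bars 95% counting intervals, dotted lines 0.5 and −0.5. Socs3 lies lowest in Rux over UV at −1.72 and Il31ra lies right of 0 for UV over CON and left of it for Rux over UV. The UV over CON value of Csf2rb2 and the Rux over UV value of Cntfr are drawn although they do not pass the minimum of 10 CPM.

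In LYM-like cells, where Jak2 was higher in UV than in CON, the lists had 7 higher and 10 lower of 49 (12.2% and 17.0% of all tested genes). Il7r, the IL-7 receptor, had 292, 639 and 682 CPM and Stat4, which acts after IL-12 receptors, had 549, 1118 and 1010.02 CPM in CON, UV and Rux. Both shared with Jak2 the higher values in the irradiated libraries. The list values of this class include the Trdc-led cluster, which held 87 cells of CON and 1 each of UV and Rux. Il12rb2 was lower in UV over CON, at −0.82 (−0.99 to −0.65), and Ifngr2 at −1.65 (−2.22 to −1.14). For Rux over UV the lists had 3 higher and 3 lower of 50 (5.10% and 10.5% of all tested genes). In VEC-like cells, where Jak1 and Jak2 were lower in Rux than in UV, the lists had 2 higher and 9 lower of 47 (6.59% and 11.4% of all tested genes) in that comparison. Stat2 was at −1.66 (−2.17 to −1.22), Socs1 at −1.55 (−2.48 to −0.81) and Socs3 at −0.98 (−1.11 to −0.86). For Rux over UV, MYE-like cells had 4 higher and 7 lower of 49 (10.6% and 13.4% of all tested genes). There Stat2 was at −1.20 (−1.59 to −0.82), while Socs3 was higher in Rux, with 194 and 282 CPM in UV and Rux. KB-like cells had 7 higher and 12 lower of 42 (6.55% and 7.84% of all tested genes), with Socs3 at −2.59 (−2.84 to −2.36) and Il4ra at −1.71 (−2.18 to −1.28). The KB-like clusters held 23 and 82 cells in UV and 70 and 56 in Rux. Stat2 was lower in Rux than in UV in all 4 of FB-like, VEC-like, MYE-like and KB-like cells, whereas Jak1 was lower in 3 of them and its KB-like interval held 0.

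The genes whose pattern was most like that of each JAK gene were found by Pearson r of log2(CPM + 1) over 30 sums, 10 classes in 3 libraries. These points share libraries and classes, so r is a description and has no p. For Jak1 they were Trim56 (r = 0.90), Etnk1 (0.88) and Smarca2 (0.88), and for Jak2 Casp8 (r = 0.87), Inpp5d (0.87) and Il2rg (0.87). For Jak3 they were Gimap8 (r = 0.86), Ly6e (0.82) and Gimap4 (0.82), and for Tyk2 Rnf34 (r = 0.93), Tor1a (0.88) and Tmem189 (0.86). Sums of 0 entered r, such as Tyk2 in MC-like cells of CON, where the interval reached 42.2 CPM. Spearman rho with Tyk2 was 0.80, 0.67 and 0.71 for Rnf34, Tor1a and Tmem189. Casp8 encodes a caspase, Inpp5d a lipid phosphatase of blood cells and Il2rg the common gamma chain that JAK3 binds, and Gimap4 and Gimap8 are GTPase genes known from lymphocytes. Among the JAK genes, Jak2 and Jak3 had the most alike patterns (r = 0.67), followed by Jak1 and Jak3 (0.59). Jak1 and Jak2 had r = 0.38, and each pair with Tyk2 lay between −0.11 and 0.16.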

How the data were processed

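Droplet single-cell libraries of mouse back skin, 3 in all, were analysed. The authors deposited raw UMI counts per gene and cell, not normalized. The submitters' processing notes name Cell Ranger 6.1.2, Seurat 5.3.0 and mm10, while the file headers name Cell Ranger 7.0.0. Whether intronic reads were counted was not stated.

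Cells were kept from 200 genes upward and up to 10% mitochondrial UMIs, and the highest Scrublet scores (scanpy 1.11.5) were removed at 0.8% per 1000 cells. Seurat 5.3.0 in R 4.3.3 clustered the libraries together (2000 variable genes, 30 principal components, resolution 1.5, no batch correction). A cluster was named when at least 3 markers of a class were each detected in 10% of its cells and led other classes. FB-like and immune cells were clustered again at resolutions 0.5 and 1, with 20 components. UMIs were summed per class and library and scaled to that sum (CPM). Intervals are exact 95% Poisson (levels), Clopper-Pearson (shares) and conditional binomial (ratios, 0.5 UMI added to each sum). Only the ratio intervals were tried on simulated data. These were Poisson counts, the model the intervals assume, so spread between cells was not covered. Python 3.11.15, numpy 2.4.6, scipy 1.17.1, pandas 2.3.3 and matplotlib 3.10.9 were used. The JAK genes and all lists were chosen with earlier results of these data known. Values of 1 list gene are not reported here. Other genes were named when past 0.5 log2, at most 8 per comparison in FB-like, KB-like, LYM-like, MYE-like and VEC-like cells, or as the 3 most like each JAK gene, or as markers and leading genes of clusters. The alternatives tried were stricter and looser cell filters, no doublet removal, resolution 0.8, each cell weighted equally, scaling by median ratios, other totals, JAK genes allowed among variable genes, subcluster weights, no thinning, other minimums and Spearman rho.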

Additional observations from a re-analysis of the deposited data

Results flagged for a closer look

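For 2 genes, classes that lay in opposite directions in Rux over CON were flagged. In neither case was the difference between the classes tested, since each library was 1 sample. Jak1 was not flagged, but over the 10 classes it had 1 interval above 0 and 6 below 0 in Rux over UV. For Jak2, Rux over CON was 1.16 (0.99 to 1.33) in LYM-like cells and −0.84 (−1.26 to −0.46) in PCY-like cells. The Trdc-led cluster of CON moved with the first value, which was 0.72 without it, and the PCY-like value was 0.0052 with doublets kept. For Tyk2, Rux over CON was 1.10 (0.53 to 1.73) in IRS-like cells and −1.41 (−3.05 to −0.22) in VEC-like cells, from 33, 78 and 98 and 32, 31 and 6 UMIs in CON, UV and Rux. The VEC-like value was −0.44 at clustering resolution 0.8. The IRS-like class joined clusters that were unevenly filled between libraries. Both Tyk2 ratios rest on mean levels under the minimum of 10 CPM set for counting genes.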

How the results depend on the processing

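Values below are log2 ratios in FB-like cells that moved outside the counting interval of the reported value. With the loose filter they were Jak1 UV over CON 0.074, Jak2 UV over CON 0.11, Jak1 Rux over CON −0.35 and Jak2 Rux over CON 0.073. At resolution 0.8 they were Jak1 UV over CON 0.072, Jak2 UV over CON 0.12, Jak1 Rux over CON −0.35 and Jak2 Rux over CON 0.075. With equal weight per cell they were Jak1 UV over CON −0.024, Jak2 UV over CON 0.014, Jak1 Rux over CON −0.43, Jak2 Rux over CON 0.016 and Jak3 Rux over CON −0.84. Median-of-ratios scaling shifted every gene of FB-like cells by 0.099, 0.035 and 0.13 (UV over CON, Rux over UV, Rux over CON), giving Jak1 UV over CON 0.12, Jak2 UV over CON 0.30, Jak1 Rux over UV −0.37, Jak1 Rux over CON −0.26 and Jak2 Rux over CON 0.33. It shifted MYE-like cells by 0.14 and 0.17 over CON, IRS-like cells by 0.13 and LEC-like cells by −0.10 in Rux over CON, and other classes by at most 0.099. Weighting subclusters as in CON gave Jak1 UV over CON 0.16, Tyk2 UV over CON −0.15, Jak1 Rux over UV −0.20, Jak2 Rux over UV −0.32, Jak1 Rux over CON −0.040, Jak2 Rux over CON −0.10 and Jak3 Rux over CON 0.67. The same without subclusters under 50 cells, chosen after seeing the data, gave Jak1 UV over CON 0.052, Jak2 UV over CON 0.017, Jak1 Rux over UV −0.32, Jak2 Rux over UV −0.19, Jak3 Rux over UV −0.27, Jak1 Rux over CON −0.27 and Jak2 Rux over CON −0.18. Adding unnamed clusters led by FB markers, also chosen then, gave Jak1 UV over CON 0.070, Jak2 UV over CON 0.10, Jak1 Rux over CON −0.36 and Jak2 Rux over CON 0.068. In FB-like cells Jak1 in Rux over UV kept its negative sign in every alternative. Both signs were taken by Jak1 in UV over CON, and by Jak2 and Jak3 in Rux over UV and in Rux over CON. Allowing JAK genes among the variable genes could not change a value, since 0 of them were among the 2000. That alternative is therefore not a separate check. Across the other classes, the sign differed in 4 of 501 alternative values where the reported interval lay off 0, and in 44 of 687 where it held 0. The former were, with doublets kept, Jak2 (0.0052) and Jak1 (0.031) in PCY-like cells for Rux over CON and Jak1 in LYM-like cells for UV over CON (0.037), and, with equal weight per cell, Jak1 in SCH-like cells for Rux over UV (0.0049).

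Without thinning, 85.8%, 88% and 90.0% of FB-like cells (CON, UV, Rux) had a Jak1 UMI and 7.09%, 7.95% and 5.67% of LYM-like cells a Jak3 UMI. At a fold of 1 on the log2 scale the list genes of FB-like cells numbered 1 higher and 3 lower in UV over CON, 0 higher in Rux over UV, and 0 higher and 3 lower in Rux over CON. With a minimum of 20 UMIs alone they numbered 12 higher in UV over CON, 5 higher and 13 lower in Rux over UV, and 10 higher in Rux over CON. At the fold of 1, lower genes are not counted here for Rux over UV. Socs3, Socs1, Csf2rb2, Il31ra and Stat2 were lower there by at least this fold, with Socs3 at 424 and 129 CPM in UV and Rux. With the minimum of 20 UMIs alone, lower genes are not counted for UV over CON and Rux over CON. For these comparisons the balance of higher and lower genes cannot be read from the counts. Shares over all genes are not given for these settings, so neither set of counts is read as a result. By Spearman rho, 3, 4 and 3 of the 10 genes most like Jak1, Jak3 and Tyk2 stayed among the 10. KB-like cells formed no class at resolution 0.8, and equal weight per cell gave no value where a gene had no UMI. No paired analysis was possible because each condition had 1 library, and for the same reason no library could be left out. Leaving out the Trdc-led cluster, the cell with the most UMIs or the shared barcodes was also chosen after seeing the data. Jak3 and Tyk2 were limited by depth, and Jak3 possibly also by its overlap with Insl3. Conditions cannot be told apart from their libraries.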

Other observations

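Some named classes had under 50 cells in a library and were not among the 10 classes compared above. Neutrophil-like cells (50, 23 and 224 in CON, UV and Rux) had 554, 624 and 487 CPM of Jak2 and 335, 237 and 269 CPM of Jak1. Their Jak2 in CON lay above that of each of the 10 classes, and its intervals overlapped between the libraries. Melanocyte-like cells (149, 60 and 34) had 94.5, 94.5 and 97.5 CPM of Jak1, near the level of IRS-like cells of CON, and 76.6, 46.8 and 97.5 CPM of Jak2. Muscle-progenitor-like cells (149, 49 and 27) had 332, 503 and 364 CPM of Jak1 and skeletal-muscle-like cells (150, 30 and 47) 126, 424 and 142 CPM. Suprabasal-keratinocyte-like cells (296, 21 and 41) had 219, 171 and 216 CPM of Jak1 and 119, 82.8 and 205 CPM of Jak2. Jak3 in neutrophil-like cells rested on 2, 0 and 2 UMIs, too few for a level.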
